A study of Mus musculus with 7 samples.

Results

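The Dppa genes (developmental pluripotency associated) are a set of short genes named for their expression in pluripotent cells. The 4 described here, Dppa2, Dppa3, Dppa4 and Dppa5a, were taken as all probe sets whose platform symbol is exactly one of these names: 35 of the 1201338 probe sets on the array, 9 for Dppa2, 13 for Dppa3, 9 for Dppa4 and 4 for Dppa5a. Dppa3, also called Stella, was taken up because it rose in these arrays, and the others came with it by name. The differences of Dppa3 from control are therefore given as a description, without a test.

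The cells were J-1 mouse embryonic stem cells, all of them infected with lentiviruses that carried a short hairpin RNA and grown in full medium. Luciferase, the target of the control hairpin, is a gene that mouse cells lack; that hairpin was used in 3 samples. The other samples carried hairpins against Mettl3, the catalytic subunit of the enzyme that places N6-methyladenosine on RNA: hairpin 1 in 2 samples and hairpin 2 in another 2. Each sample was hybridised to 1 exon array, whose probe sets each read 1 short stretch of a transcript, and all values are on the log2 scale. Whether the samples of 1 group were grown as separate cultures is not stated. The p-values below therefore reflect only how far these arrays differ from each other, which may be a technical spread, and precision is limited by how few arrays there are. These are bulk samples, in which fewer cells that express a gene and less RNA per cell cannot be told apart.

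Dppa3 encodes a small basic protein that is stored in the egg and made again in primordial germ cells. It protects the maternal genome from loss of DNA methylation in the zygote and restrains the methylation cofactor UHRF1, and in cultured embryonic stem cells it is made in only a part of the cells. Dppa2 and Dppa4 are neighbouring, related genes whose proteins bind DNA through a SAP domain, work as a pair at CpG-rich promoters and can activate genes of the 2-cell embryo. Dppa5a, also called Esg1, encodes an RNA-binding protein with a KH domain and belongs to a family of egg and embryo genes.

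Mettl3 itself was lower on all 4 knockdown arrays (8.66 to 8.97) than on the 3 luciferase arrays (10.14 to 10.46). Of 10 markers of embryonic stem cells, all of which were tested, none passed for both hairpins, beside 7.9% of all genes. On a list of this length such a count is near the background. Their mean level was 11.95 to 12.11 on the luciferase arrays and 11.93 to 12.08 on the knockdown arrays. In a principal component analysis of the 16353 genes, the second axis (21.4% of the variance) did not follow the groups: luciferase replicate 3 and hairpin 1 replicate 2 lay at -10.4 and -17.8 on it, and the other 5 arrays lay above 0. Luciferase replicate 3 was the lowest of the 3 control arrays in 21 of the 28 Dppa probe sets that passed the brightness minimum, against 41.8% of all such probe sets. Values without it are given below for the comparisons of Dppa2, Dppa3, Dppa4 and Dppa5a.

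A gene value was the median, on each array, of the gene's probe sets whose mean over the 7 arrays exceeded the median of all probe sets (6.02). By that minimum 28 of the 35 Dppa probe sets were kept: all 9 of Dppa2, 7 of 13 of Dppa3, 8 of 9 of Dppa4 and all 4 of Dppa5a. The lowest single luciferase value among the kept Dppa3 probe sets was 6.42, so none of them passed through the knockdown arrays alone.

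Dppa3 stood at 8.13, 8.10 and 7.80 on luciferase replicates 1, 2 and 3. It was at 9.49 and 9.23 with hairpin 1 and at 9.43 and 9.37 with hairpin 2. Every knockdown array lay above every luciferase array, with a gap of more than 1 log2 unit between the groups. Group means were 8.01 ± 0.18 (SD, n = 3) for luciferase, 9.36 ± 0.19 (SD, n = 2) for hairpin 1 and 9.40 ± 0.041 (SD, n = 2) for hairpin 2. The mean of both hairpins was 1.37 ± 0.106 (SE) above luciferase, a 2.59-fold difference; without luciferase replicate 3 it was 1.27. The difference was 2.55-fold with hairpin 1 and 2.62-fold with hairpin 2. In order of the size of the rise among the 16353 genes tested, Dppa3 ranked 3 for both hairpins, 9 for hairpin 1 and 1 for hairpin 2. These comparisons share the 3 luciferase arrays, so the second is not an independent repeat of the first. Across genes, 13.4% had all 4 knockdown arrays above all 3 luciferase arrays and 8.4% had them all below.

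**Figure D1:**
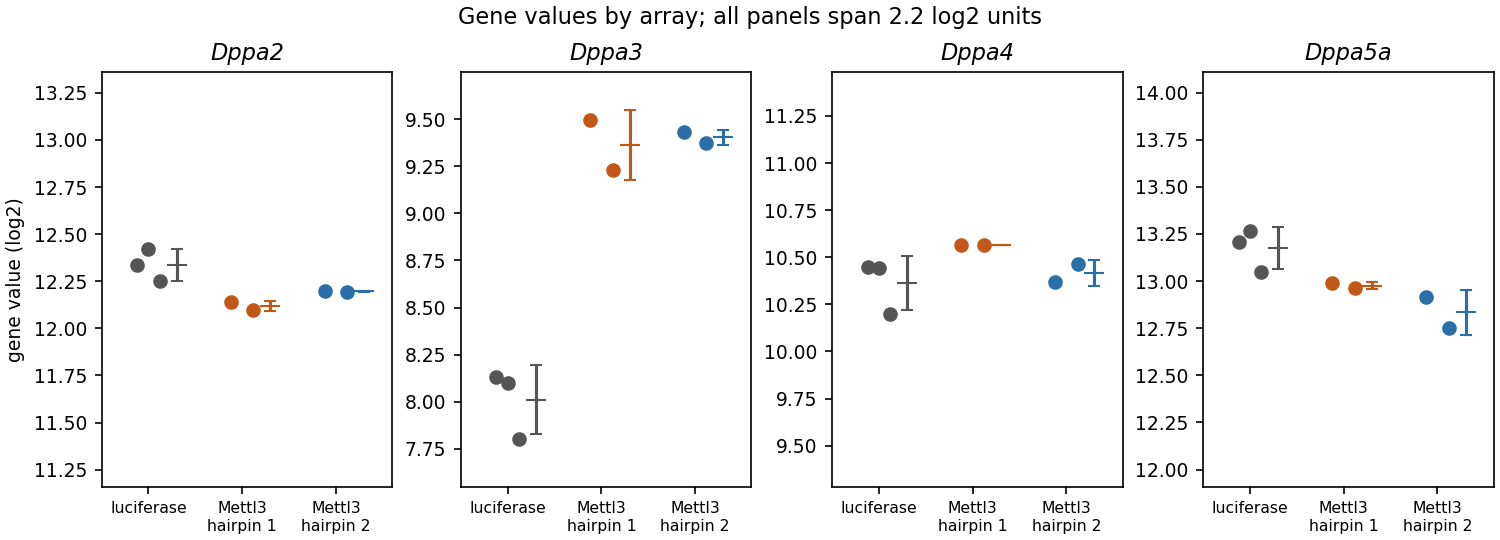
Gene values (log2, vertical axis) of the 4 Dppa genes on each of the 7 arrays, as points by group, with the mean and SD of each group beside them; every panel spans the same range. Dppa3 lies between 7.80 and 8.13 on the luciferase arrays and between 9.23 and 9.49 on the knockdown arrays, while the groups of the other genes lie within about 1 log2 unit.

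The comparison between the hairpins was not what Dppa3 was chosen on. The luciferase arrays do not enter its difference, but they help set its error, since all 7 arrays share 1 estimate of the spread. The hairpins differed by -0.041 (hairpin 1 minus hairpin 2, 95% interval -0.35 to 0.27), and limma's adjusted p over all genes was 0.962. The interval leaves room for a difference of either sign, smaller than the difference of either hairpin from luciferase. The sign of this small value turned to 0.067 with the mean of the probe sets and to 0.091 without hairpin 1 replicate 2. Between the hairpins 0.104% of all genes were called, that is 17, and none of the 4 Dppa genes was among them. That count was 0 to 4 when any single array was left out, 2 with only the arrays compared and 79 with the mean of the probe sets; for comparison, 1435 genes had an unadjusted p under 0.05.

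The rise of Dppa3 was seen in each of its kept probe sets, whose positions on the transcript were not examined. All 7 kept probe sets were higher with both hairpins, by 0.71 to 1.51 with a median of 1.42, and in all 7 the 4 knockdown arrays lay above the 3 luciferase arrays, as did 12.2% of all kept probe sets (5.94% had them all below). Since these measure the same contrast on which Dppa3 was chosen, nothing is read from that count. The brightest was probe set 5078368, at 9.37, 9.76 and 9.10 on the luciferase arrays. It read 10.89 and 10.78 with hairpin 1 and 10.93 and 10.73 with hairpin 2. Both hairpins thus gave the same difference there, 1.42 each.

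The probe set with the smallest difference among those kept was 4857161. It stood at 9.39, 9.24 and 9.39 on the luciferase arrays, at 10.22 and 10.01 with hairpin 1 and at 10.03 and 9.95 with hairpin 2. It was higher by 0.71, where the other 6 were higher by 1.25 to 1.51. Between the hairpins the kept Dppa3 probe sets differed by -0.089 to 0.20, and none passed (limma adjusted p of at least 0.886); no kept probe set of any gene did, while 15276 had an unadjusted p under 0.05.

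The 6 Dppa3 probe sets under the brightness minimum were also all higher on average, by 0.13 to 2.45, but they varied more. Probe set 4741876 read 3.49, 5.50 and 4.20 on the luciferase arrays and 6.84, 6.70, 6.82 and 7.02 on the knockdown arrays of hairpin 1 and then hairpin 2. It is the largest difference among all 35 Dppa probe sets, and its control values lay among dim signals where the replicates differed by about 2 log2 units. Probe set 4361015, the dimmest, was at 2.03 to 2.44 with luciferase and at 2.06 to 2.91 with the Mettl3 hairpins, and the groups overlapped. Of the other 4 dim probe sets, none had all knockdown arrays above all luciferase arrays.

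**Figure D2:**
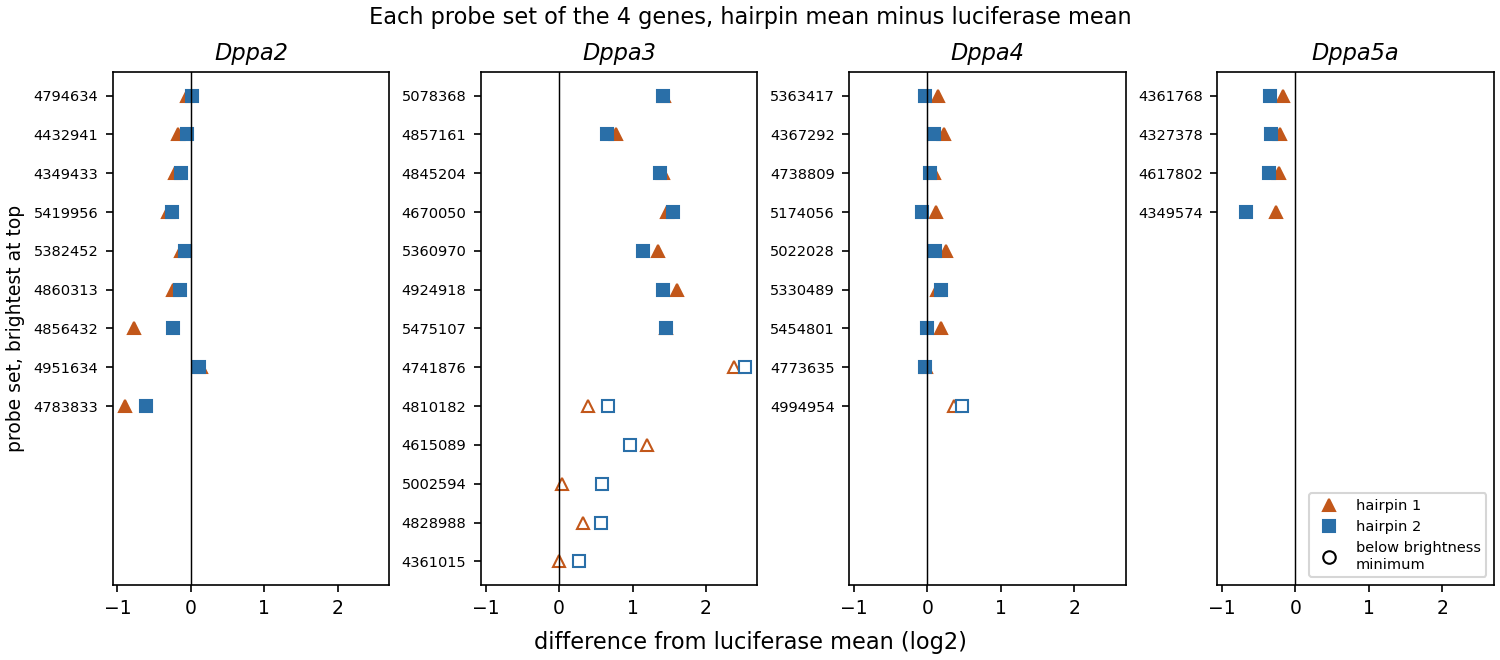
Difference of each hairpin's mean from the luciferase mean (log2, horizontal axis) for the 35 probe sets of the 4 genes, ordered by brightness with the brightest at the top. Triangles are hairpin 1, squares are hairpin 2, and open symbols are probe sets under the brightness minimum. All filled Dppa3 symbols lie at or above 0.65, all Dppa5a symbols at or below -0.17, and the filled Dppa4 symbols between -0.069 and 0.25. The open Dppa4 symbols lie at 0.37 (hairpin 1) and 0.48 (hairpin 2).

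Dppa5a moved the other way, by less. It stood at 13.21, 13.27 and 13.05 on the luciferase arrays, at 12.99 and 12.96 with hairpin 1 and at 12.92 and 12.75 with hairpin 2. Every knockdown array lay below every luciferase array, as for 8.4% of all genes, but the gap between the groups was narrow. Means were 13.17 ± 0.11 (SD, n = 3), 12.98 ± 0.019 (SD, n = 2) and 12.83 ± 0.12 (SD, n = 2). The mean of both hairpins differed from luciferase by -0.27 ± 0.086 (SE; 95% interval -0.46 to -0.08), a 1.21-fold difference, and did not pass limma's test across all genes (adjusted p = 0.0892). With hairpin 1 alone the difference was -0.20 (adjusted p = 0.295) and with hairpin 2 alone -0.34 (adjusted p = 0.109).

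The call on Dppa5a changed with the summary of its probe sets, the spread model, the centring of the arrays and the brightness minimum. With the mean of its probe sets in place of the median, both hairpins were at -0.32 from luciferase and passed (limma adjusted p = 0.00584). Median polish gave -0.31 (adjusted p = 0.0103), centring of the arrays -0.33 (0.048), a trended and robust spread -0.27 (0.014) and the stricter brightness minimum -0.27 (0.041), all of which passed. It did not pass after quantile normalization, with no minimum or with a replicate block. Nor did it pass when any single array was left out (limma adjusted p = 0.0785 to 0.256). Without luciferase replicate 3 it was at -0.33 (limma adjusted p = 0.0785). Over all genes, 1292 were called for both hairpins in the main fit. The mean called 2840, median polish 2469, the stricter minimum 1836 of 12271, the trended and robust spread 1609 and centring 1399. Quantile normalization called 1344, no minimum 484 and the replicate block 540.

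At the level of probe sets, all 4 of Dppa5a were lower on every knockdown array than on every luciferase array, as were 5.94% of all kept probe sets. Probe set 4349574 read 11.94, 11.93 and 11.97 with luciferase, 11.61 and 11.77 with hairpin 1 and 11.39 and 11.16 with hairpin 2. The luciferase arrays agreed closely here and the hairpin 2 arrays were the lowest. Its difference was -0.46 (limma adjusted p over all kept probe sets 0.0596). The other 3 lay at 13.03 to 13.33 with luciferase and differed by -0.25 to -0.29 (adjusted p = 0.162 to 0.221). With a trended and robust spread all 4 were called lower, but the share of all probe sets called by that fit was not computed.

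For comparison, 2.29% of all 229811 kept probe sets were called for both hairpins, 1.37% for hairpin 1 and 0.414% for hairpin 2. By the same fit no probe set of Dppa2, Dppa4 or Dppa5a was called for any of these (at an unadjusted p under 0.05, all 4 of Dppa5a, 3 of Dppa2 and none of Dppa4 would pass for both hairpins, as would 42226 of all probe sets). The 4 Dppa5a probe sets read 1 short transcript and are not independent of each other. A probe set that the platform assigns to both Dppa5a and Pigp, and so outside the rule, was at 13.14 to 13.31 with luciferase and 12.77 to 13.04 with the Mettl3 hairpins. The 1 probe set of the pseudogene Dppa5c differed by -0.43, with hairpin 1 overlapping the controls. Signal from near-identical copies is uncertain on this array, and copies of Dppa3 and Dppa5a exist in the mouse genome. These probe sets were singled out after their values were seen.

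Dppa2 was slightly lower with the Mettl3 hairpins. It stood at 12.33, 12.42 and 12.25 on the luciferase arrays, at 12.14 and 12.10 with hairpin 1 and at 12.20 and 12.19 with hairpin 2. All 4 knockdown arrays lay below all 3 luciferase arrays, as for 8.4% of all genes, by a margin smaller than the range of the controls. The difference of both hairpins from luciferase was -0.18 ± 0.077 (SE; 95% interval -0.35 to -0.01), or 1.13-fold, and did not pass (limma adjusted p = 0.193). Without luciferase replicate 3 it was -0.22 (adjusted p = 0.182). It was -0.22 with hairpin 1 (adjusted p = 0.202) and -0.14 with hairpin 2 (adjusted p = 0.462).

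The probe sets of Dppa2 fell into bright and dimmer ones. The 6 brightest, with means of 11.6 to 12.9 over the arrays, differed by -0.28 to -0.021. Of the 3 dimmer ones, 4783833 differed by -0.75 and 4856432 by -0.51, while 4951634 differed by 0.12. Probe set 4783833 read 7.97, 8.88 and 7.75 with luciferase, 7.27 and 7.34 with hairpin 1 and 7.26 and 7.92 with hairpin 2, so the groups overlapped and the controls spread over more than 1 log2 unit. None of the 9 passed for both hairpins (limma adjusted p = 0.214 to 0.923). With a trended and robust spread 1 did, and the share of all probe sets called by that fit was not computed. Luciferase replicate 3 was the lowest control in all 9.

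Dppa4, the partner of Dppa2, did not pass in either direction. It stood at 10.45, 10.44 and 10.20 on the luciferase arrays, at 10.56 and 10.56 with hairpin 1 and at 10.37 and 10.46 with hairpin 2. Hairpin 1 lay above all controls and hairpin 2 overlapped them. The difference of both hairpins was 0.13 ± 0.088 (SE; 95% interval -0.07 to 0.32; limma adjusted p = 0.415). The difference was 0.20 with hairpin 1 (adjusted p = 0.301) and 0.052 with hairpin 2 (adjusted p = 0.834). Without luciferase replicate 3, the lowest control, the difference of both hairpins was 0.044 and that of hairpin 2 was -0.031.

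Its 8 kept probe sets differed by -0.020 to 0.18, and none passed (adjusted p = 0.352 to 0.976). Probe set 4367292 was the only one in which all knockdown arrays lay above all controls, as they did in 12.2% of all kept probe sets. It read 11.30, 11.27 and 11.21 with luciferase, 11.46 and 11.52 with hairpin 1 and 11.35 and 11.35 with hairpin 2. The 1 dim probe set, 4994954, was at 6.10, 6.37 and 4.75 on the luciferase arrays and at 6.05 to 6.38 on the knockdown arrays. Its difference of 0.42 thus came with a single low control, luciferase replicate 3.

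**Figure D3:**
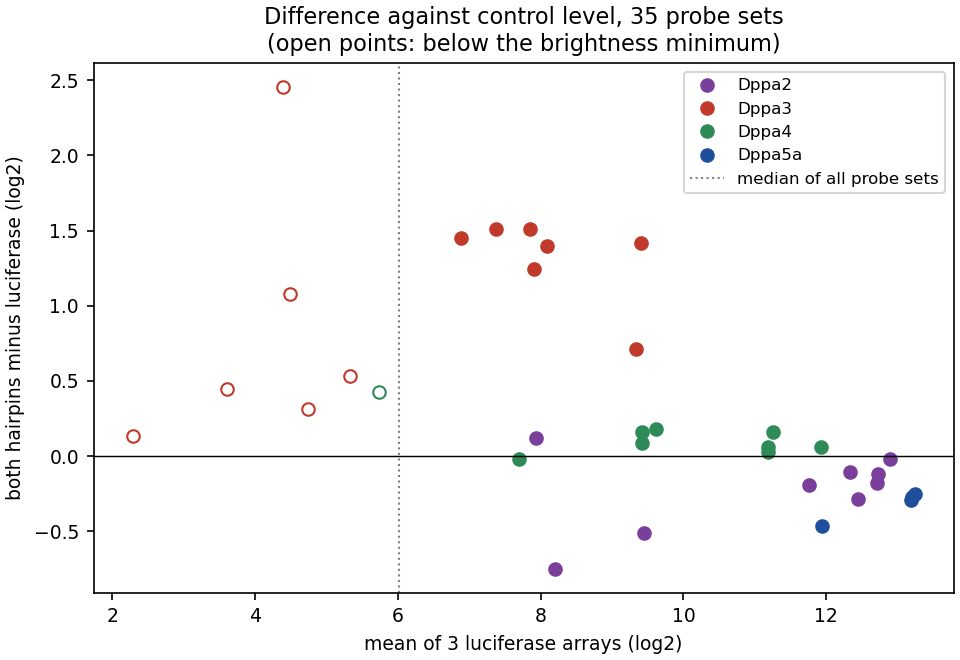
Difference of both hairpins from luciferase (log2, vertical axis) against the mean of the 3 luciferase arrays (log2, horizontal axis) for the 35 Dppa probe sets, coloured by gene; open points lie under the brightness minimum and the dotted line marks 6.02. The kept Dppa3 points lie between 0.71 and 1.51, apart from those of the other genes, which lie between -0.75 and 0.18.

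Because Dppa2 and Dppa4 proteins work as a pair, the change of 1 gene was set against that of the other within each array; this comparison was chosen after the values were seen. Dppa4 minus Dppa2 was -2.05 to -1.88 on the luciferase arrays and -1.83 to -1.53 on the knockdown arrays, so the groups did not overlap. The size of this quantity depends on the probes and has no meaning by itself. Its shift was 0.30, from -1.97 ± 0.084 (SD, n = 3) to -1.67 ± 0.14 (SD, n = 4). Luciferase replicate 3 had the lowest value, and without it the shift was 0.26. No test is given, since the values were known to lie apart when the comparison was made. A ratio within an array shows unequal change and not which of the pair changed.

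In all, for both hairpins against luciferase 7.9% of the 16353 genes were called (5.53% higher and 2.37% lower); Dppa2, Dppa4 and Dppa5a were not among them. For hairpin 1 alone 5.89% were called and for hairpin 2 alone 3.79%, again without these 3 genes. Leaving out single arrays, these counts were 271 to 729 genes in place of 964 for hairpin 1 and 63 to 577 in place of 619 for hairpin 2. Between the hairpins, hairpin 1 minus hairpin 2 was -0.078 for Dppa2 (95% interval -0.30 to 0.15), 0.15 for Dppa4 (-0.11 to 0.41) and 0.14 for Dppa5a (-0.11 to 0.39), with limma adjusted p of 0.882, 0.778 and 0.784. These intervals are as wide as the differences from luciferase themselves, so the data do not show that the hairpins acted alike on these 3 genes. Dppa1, whose symbol was not in the rule, had 8 probe sets, of which 2 passed the brightness minimum, and was not tested.

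The chromosomal neighbours of the Dppa genes were compared next, as the 3 nearest tested genes on each side in the order of assembly GRCm38.p6. Dppa3 lies on chromosome 6 in a cluster of genes of pluripotent cells. Its nearest neighbours were Gdf3, a growth factor gene of the TGF-beta family, and Nanog, a core pluripotency factor. Gdf3 differed by 0.039 (limma adjusted p = 0.794) and Nanog by -0.083 (adjusted p = 0.517). The glucose transporter gene Slc2a3 (0.074), the RNA-editing enzyme gene Apobec1 (0.17) and the microfibril gene Mfap5 (-0.13) did not pass either (adjusted p = 0.195 to 0.603), though Apobec1 was at 0.25 and passed with the stricter minimum (adjusted p = 0.0393). Foxj2, a forkhead factor gene and the third on that side, rose by 0.43 (adjusted p = 0.0243), a call that was lost without any of 4 single arrays (luciferase replicates 2 and 3, hairpin 1 replicate 1 and hairpin 2 replicate 2) or with no brightness minimum.

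On chromosome 16, Dppa4 and Dppa2 lie side by side between genes that moved more than they did. Next to Dppa2 was Morc1, a gene needed to silence transposons in the male germline, which fell by 1.22 on the log2 scale (limma adjusted p = 0.000715). Its differences were -1.21 with hairpin 1 and -1.23 with hairpin 2. On the side of Dppa4, the adhesion gene Nectin3 rose by 0.44 (adjusted p = 0.012), and the next gene, Cd96, an immune receptor gene, was at -0.68 (adjusted p = 0.00364). Nectin3 was no longer called without hairpin 2 replicate 2, and neither gene was called with no brightness minimum. Beyond them, Plcxd2 (0.089), Dzip3 (-0.14) and Cip2a (-0.20) did not pass (adjusted p = 0.368 to 0.674); with the stricter minimum Dzip3 was at -0.34 and passed (adjusted p = 0.0346).

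Dppa5a lies on chromosome 9 beside Ooep, another KH-domain gene, which encodes a part of the subcortical maternal complex of the egg. Ooep stood at 11.01 with luciferase and 10.51 as the mean of both hairpins, and fell by 0.50 on the log2 scale (difference -0.50 ± 0.090, SE; limma adjusted p = 0.00945). This call was lost without luciferase replicate 1. It was at -0.41 with hairpin 1 (adjusted p = 0.0541) and -0.59 with hairpin 2 (adjusted p = 0.0189), and the hairpins did not differ detectably (adjusted p = 0.736). The other neighbours were the RNA helicase gene Ddx43 (-0.12), the DNA sensor gene Cgas (-0.31), the glutathione transferase gene Gsta4 (-0.15), the kinase gene Cilk1 (0.26) and Fbxo9 (0.12). None of these 5 passed (adjusted p = 0.0768 to 0.473), but Ddx43 was at -0.75 and passed with the stricter brightness minimum (adjusted p = 0.00192). With the mean of the probe sets, Ddx43 (-0.38) and Cgas (-0.22) passed as well (adjusted p = 0.0369 and 0.0289).

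Gene lists around each Dppa gene were then examined. The list around Dppa3 held 14 genes that act on DNA methylation or are linked to it less directly. All of them were tested, of which 1 rose and 1 fell. Among all genes 5.53% rose and 2.37% fell, so on a list of this length such a count is near the background. The de novo methyltransferase gene Dnmt3b rose by 0.41 (limma adjusted p = 0.0114) and its cofactor gene Dnmt3l fell by 0.34 (-0.34, adjusted p = 0.0256). The call of Dnmt3b was lost without luciferase replicate 1 or hairpin 2 replicate 2, and that of Dnmt3l without any single array but hairpin 1 replicate 2. Uhrf1, which Dppa3 protein restrains, was at -0.021 (adjusted p = 0.899), and the maintenance methyltransferase gene Dnmt1 at -0.027 (adjusted p = 0.861). The list's median was 0.017, beside 0.00045 over all genes tested.

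Of 17 genes of the naive state, among which are genes known to vary with Dppa3 from cell to cell, 16 were tested. The zinc finger factor gene Klf2 rose by 0.37 (limma adjusted p = 0.0211) and the T-box factor gene Tbx3 fell by 0.62 (adjusted p = 0.00355). The other genes tested did not pass, so that 1 of 16 rose and 1 of 16 fell beside 5.53% and 2.37% of all genes, and the list's median was -0.091. The call of Klf2 was lost without any single array but luciferase replicate 1 or hairpin 1 replicate 2. Zfp42, also called Rex1, a common marker of naive cells, was at 0.14 (adjusted p = 0.333), and Esrrb, another naive state factor, at -0.11 (adjusted p = 0.464).

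Dppa3 is also a marker of early germ cells. Of 15 genes of that list, all tested, 1 rose and 2 fell, beside 5.53% and 2.37% of all genes, with a median of -0.014. Mael, which acts in transposon silencing, fell by 0.94 (limma adjusted p = 0.00207), and Dazl, a translation factor of germ cells, fell by 0.88 (adjusted p = 0.000413). The interferon-inducible gene Ifitm1 rose by 0.32 (adjusted p = 0.0345), a call that was lost whichever of the 7 arrays was left out, and with the mean of its probe sets (0.15). The germ cell specifiers Prdm1 (0.24, adjusted p = 0.133), Prdm14 (-0.20, adjusted p = 0.127) and Tfap2c (-0.019, adjusted p = 0.905) did not pass. Over the 8 germ cell markers the mean level was 8.81 to 8.91 with luciferase, 8.60 to 8.72 with hairpin 1 and 8.78 to 8.89 with hairpin 2. Only hairpin 1 thus lay wholly below the controls.

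For Dppa2 and Dppa4 the list held 16 genes of the 2-cell embryo, a programme on which both proteins are known to act. Only 4 had enough bright probe sets to be tested, and neither Dux nor any Zscan4 gene was among them. None of the 4 passed; the largest differences were Tmem92 (-0.23, limma adjusted p = 0.17) and Sp110 (0.15, adjusted p = 0.471). The list's median was 0.097 over these 4.

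For Dppa5a the list held 10 genes of its KH-domain family and of the subcortical maternal complex, of which 7 were tested. Of these 2 fell and none rose, beside 2.37% of all genes called lower, and the median was -0.071. Besides Ooep, Nlrp4f, an egg gene of the NLRP family, fell by 0.79 (limma adjusted p = 0.00236). Khdc3, the closest relative of Ooep in the list, was at -0.22 (adjusted p = 0.126), Nlrp5 at 0.24 (adjusted p = 0.149) and Tle6 at -0.034 (adjusted p = 0.861). On such a short list a count of 2 is a description only.

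Markers of other cell types were measured beside these results. Of 10 tested fibroblast feeder markers, Acta2 (1.07) and Tagln (0.78) rose and none fell, beside 5.53% and 2.37% of all genes, and none of the 4 collagen genes passed. With no brightness minimum Tagln (0.77) did not pass (limma adjusted p = 0.0721); the mean of the list was 7.25 to 7.29 with luciferase, 7.47 to 7.53 with hairpin 1 and 7.27 to 7.29 with hairpin 2. Of 7 trophectoderm markers, the keratin genes Krt18 (1.03) and Krt8 (0.81) rose and none fell, with a list mean of 7.85 to 7.97 with luciferase and 8.05 to 8.19 with the Mettl3 hairpins. Krt18 was at 1.42 with hairpin 1 and 0.64 with hairpin 2, Krt8 at 1.18 and 0.43, and Tagln at 1.19 and 0.36. Each was among the 17 genes called between the hairpins (limma adjusted p = 0.0438 to 0.0448), a count that was 0 to 4 without any single array. Tagln did not pass with hairpin 2 alone (limma adjusted p = 0.0851). Acta2 was at 1.38 and 0.77 and was not called between the hairpins (limma adjusted p = 0.224). Cdx2, which defines that lineage, was at -0.066 (limma adjusted p = 0.676). The medians of these lists (-0.12 for feeders and -0.066 for trophectoderm) were below 0 while their means (0.11 and 0.20) were above it. Of 5 neuroectoderm markers Nes rose (0.46) and Sox1 fell (-0.39); leaving out 1 array ended the call of Nes for 4 of the 7 arrays and that of Sox1 for 6, and Nes was at -0.15 with the stricter minimum. None of 8 primitive endoderm markers passed; Lamb1, at 0.30, passed with the stricter minimum (adjusted p = 0.0182). The part of these cell types in the Dppa values was not tested.

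The genes whose values lay closest to each Dppa gene over the 7 arrays were found from the root mean square difference after each gene's luciferase mean was subtracted. The nearest to Dppa3 were Ina, a neuronal intermediate filament gene, at 0.14, the lysosomal amidase gene Naaa at 0.19 and the peptidase gene Pm20d2 at 0.21. Atp10a, a lipid flippase gene, was at 0.24 and Glod5 at 0.26. For scale, Dppa3 differed from its own luciferase mean by a root mean square of 1.04, and these 5 genes were 1.09 to 1.30 above luciferase. Pearson r with Dppa3 was 0.966 to 0.981 over 7 arrays, a description that mostly repeats the step between control and knockdown arrays.

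For the other 3 genes the nearest profiles belonged to unrelated genes with shifts as small. Those nearest to Dppa2 were Cep95, Agtrap, Dap3, Tmem8b and Scnm1, with differences from luciferase of -0.20 to -0.15. Nearest to Dppa5a were Slc34a2, Lsamp, Gas2, Snph and Srrm3 (-0.28 to -0.20). Arf1, Tcf15, Ilrun, H2-Ke6 and Atp8a1 lay nearest to Dppa4 (0.10 to 0.12). They shared with it the low value on luciferase replicate 3, an array that entered the measure by which they were picked.

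**Figure D4:**
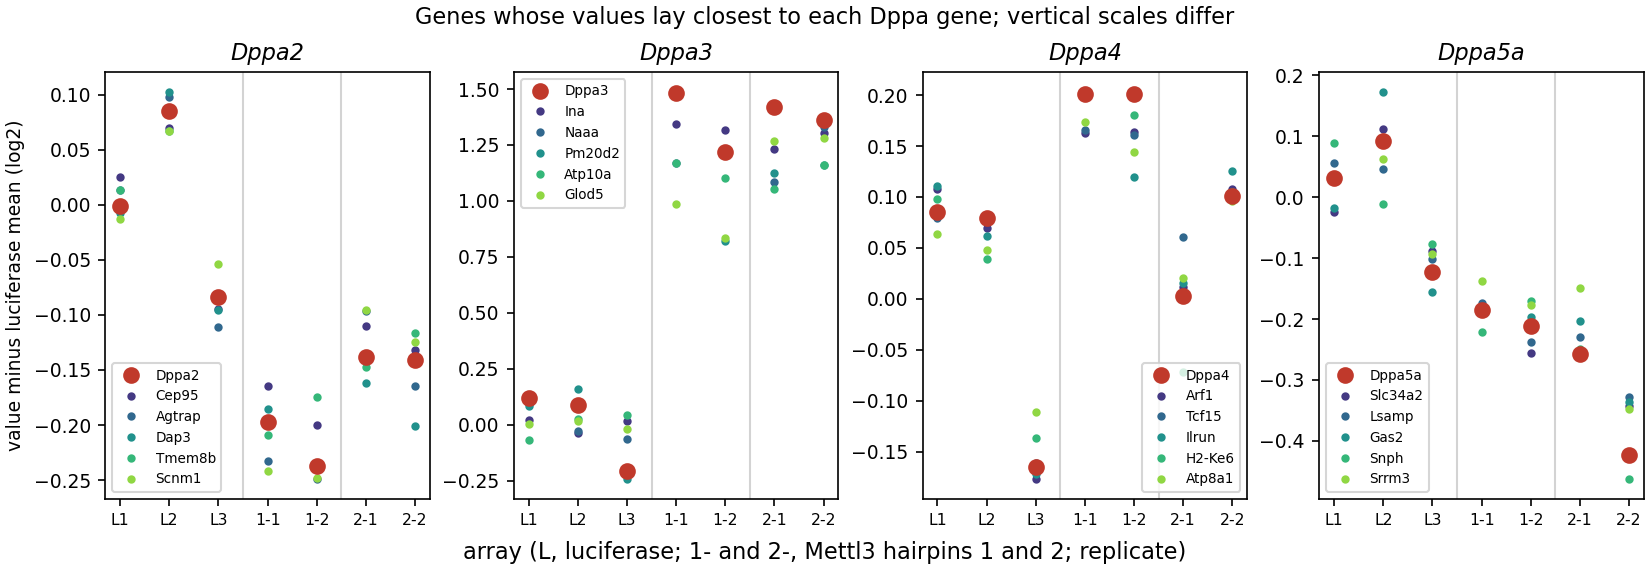
Value minus luciferase mean (log2, vertical axis; scales differ between panels) on the 7 arrays for each Dppa gene (large red points) and the 5 genes with the nearest values (small points). Dppa3 and its 5 nearest genes are 1.09 to 1.37 above luciferase as the mean of both hairpins, whereas the panels of the other 3 genes span less than 1 log2 unit.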

How the data were processed

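Expression was measured on 7 arrays, and the authors deposited 1 table of log2 values per probe set, 1 column per array. Per the submitters' processing notes, RMA and R 2.11.1 were used; of the RMA package, genome build and filters the sources used here say nothing. Because RMA equalises the arrays, a change shared by most transcripts would go unseen. Symbols came from the platform annotation, with 45560 probe sets updated through RefSeq synonyms of GRCm38.p6.

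Gene values (median of at least 3 kept probe sets with 1 symbol) and 229811 kept probe sets entered separate fits in limma 3.58.1 (R 4.3.3, lmFit and eBayes), each with 1 mean per group over the 7 arrays and 4 residual degrees of freedom. A Benjamini-Hochberg adjusted p under 0.05, taken over all genes or all kept probe sets, counted as a call. On simulated data for both hairpins against luciferase with 16353 genes, 100% of genes changed by 1 and 79% of those changed by 0.5 were called. In that simulation 100 genes were changed by each size, while 1292 genes were called in the real data. The adjusted p depends on how many genes change, so these shares may differ in the real data. The simulated errors were independent between genes. Both sizes exceed the differences of Dppa2, Dppa4 and Dppa5a, so how often shifts as small would be called was not tested. Named genes are the 4 members, Mettl3, up to 4 called genes per list (or the 2 largest differences), 3 neighbours per side and the 5 nearest profiles per member; predicted genes were skipped. Uhrf1, Dnmt1, Zfp42, Esrrb, Prdm1, Prdm14, Tfap2c, Khdc3, Nlrp5, Tle6 and Cdx2 were named besides, after their values were seen. Members and lists were chosen with earlier results of these data known. The labels do not say whether replicate numbers paired the samples, and the main fit treated them as unpaired. Alternatives were other brightness minimums, summaries, normalizations and spread models, a replicate block, single groups and leaving out arrays.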

Additional observations from a re-analysis of the deposited data

How the results depend on the processing

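Dppa3 stayed above luciferase in every alternative: leaving out single arrays gave 1.27 to 1.44 for both hairpins, 1.22 to 1.48 for hairpin 1 and 1.29 to 1.45 for hairpin 2. Luciferase replicate 2 (11.5) and hairpin 1 replicate 2 (-17.8) lay furthest from 0 on the second component. These are the arrays called set apart from here on, and luciferase replicate 3 is not among them. Without both, an alternative chosen after seeing the data, hairpin 1 was at 1.53. Dppa2 and Dppa4 did not pass in any alternative. Dppa5a passed for both hairpins with the stricter minimum (-0.27), the mean (-0.32), median polish (-0.31), centring (-0.33) and a trended, robust spread (-0.27), and for hairpin 2 with the stricter minimum (-0.34), the mean (-0.43), median polish (-0.40) and the trended, robust spread (-0.34); the cause was not tested. Leaving out single arrays, Dppa5a ranged from -0.33 to -0.22 for both hairpins. Some signs turned: Dppa3 between the hairpins with the mean (0.067), median polish (0.087), without hairpin 1 replicate 2 (range over single arrays -0.17 to 0.091) and without both arrays set apart (0.091); Dppa4 with hairpin 2 after centring (-0.010), with the replicate block (-0.031) and without luciferase replicate 3 (range -0.031 to 0.10); Mettl3 between the hairpins without hairpin 1 replicate 1 (range -0.014 to 0.29). Among other genes, Nes was at -0.15 with the stricter minimum; Plcxd2 at -0.041 with that minimum, -0.050 with the mean, -0.035 with median polish and -0.0068 without hairpin 1 replicate 1 (range -0.0068 to 0.18); Zfp42 at -0.025 with the mean and -0.015 with median polish; Gdf3 at -0.0057 with median polish, -0.017 after centring, -8.29e-05 without luciferase replicate 2 (range -8.29e-05 to 0.072) and -0.0044 without both arrays set apart; and Ddx43 at 0.00044 without both.

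Samples of the 3 groups share replicate numbers, and the deviations of same-numbered arrays gave r across genes of -0.26 to 0.083. These r cannot decide whether samples were paired. The 2 arrays of each hairpin deviate by equal and opposite amounts, and luciferase replicate 3 has no partner. As the only array with its number, luciferase replicate 3 is fitted by itself in the replicate block. Differences with the block therefore equal those without that array, with fewer degrees of freedom left, so these alternatives are not independent. With the replicate block Dppa3 was at 1.27 and Dppa5a at -0.33 (limma adjusted p = 0.130), and 540 genes were called in place of 1292; the block changed no call of a Dppa gene and ended those of Foxj2, Nectin3, Dnmt3b, Dnmt3l, Klf2, Ifitm1, Nes and Sox1. With no minimum, Foxj2, Nectin3, Cd96, Dnmt3l, Klf2, Ifitm1, Nes, Sox1 and Tagln were not called, and without both arrays set apart, Foxj2, Dnmt3l, Klf2, Ifitm1, Nes and Sox1 were not. The count for both hairpins was 484 with no minimum, 2840 with the mean, 2469 with median polish and 605 to 1098 without single arrays. After centring, 696 genes were higher and 703 lower, in place of 904 and 388. The comparison of both hairpins with luciferase uses all groups, so it has no fit on single groups. The number of arrays limits the precision; no measure of signal over background was used here.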
